A study of Mus musculus with 8 samples.

Results

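Genes of membrane trafficking among the YTHDF3-bound RNAs of mouse embryonic fibroblasts (MEFs) were collected from the 4 deposited peak lists. A peak was taken as a member when its deposited gene name was Rab with a number, Tbc1d, Snx or Dennd with a number, or Rab with a number followed by fip. After filtering on the study's definition of a YTHDF3 target (IP at least 2-fold above input, p below 0.0001), 716 of 87096 peaks were members, and they carried 68 of 8612 gene names. The thresholds removed 6 member peaks and no member gene. Peaks of different lists that overlapped by at least 1 bp were joined into regions, which gave 319 member regions of 39979 regions in all.

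The cells were wild type C57BL/6 MEFs, isolated at 13.5 days post-coitum and used at passages 5 to 6. They were either left in normal medium or kept in nutrient-deprived medium for 2 h before lysis, and RNA immunoprecipitation with an anti-YTHDF3 antibody (IP) was followed by sequencing of polyA RNA. Each condition had 2 replicates, and each IP was set against an input library made without antibody, so 8 libraries were used. A control precipitation with a nonspecific antibody was not among the libraries analysed here, and nothing in the labels says whether replicates were separate cultures, so p-values measure the spread between these samples, which may be technical.

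YTHDF3 is a cytoplasmic reader of m6A, the methyl mark that is most often placed on the adenosine of a GGAC or similar sequence in mRNA. Rab GTPases are small membrane switches that cycle between a GTP-bound and a GDP-bound form and give each compartment of the secretory, endosomal and autophagic routes its identity. DENN domain proteins (Dennd) load them with GTP, TBC domain proteins (Tbc1d) speed their GTP hydrolysis, and Rab11 family interacting proteins (Rab11fip) are effectors that carry recycling endosomes. Sorting nexins (Snx) bind phosphoinositides and shape endosomes, and several Rab, Tbc1d and Snx proteins act in the forming or emptying of autophagosomes, the process that nutrient deprivation switches on.

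Windows of 30 bases are printed for a member region of each family that lay in an exon of the named gene. These are not in every family the regions with the most IP reads. Windows are also printed for 2 regions whose deposited name and host gene differed, since that difference runs through the results. Each window is taken from the RefSeq copy of the mm10 assembly around the GGAC nearest to the centre of the region that lies within coding sequence. It is written 5′ to 3′ on the transcribed strand with the GGAC in capitals, and the strand and positions follow in the next sentences.
Rab43: gcccgggagatcaGGACgaacactacgatt
Tbc1d2b: tcaagagtccccaGGACgctctgccgctcg
Snx33: tcagtatccagcaGGACgaagagctggtta
Dennd2a: gaggcctatcgatGGACagccagagctcag
Rab11fip3: ccaaggaactggaGGACctcgactcccctc
Nsd1, deposited as Rab24: gcctatagttgctGGACaaacactagccca
Gfod1, deposited as Tbc1d7: accggcgcacgtgGGACggccggcctctta
The windows lie at chr6:87811502-87811531 for Rab43, chr9:90270474-90270503 for Tbc1d2b, chr9:56926699-56926728 for Snx33, chr6:39523211-39523240 for Dennd2a and chr17:26068529-26068558 for Rab11fip3, all on the minus strand. The Nsd1 window is at chr13:55313551-55313580 on the plus strand and the Gfod1 window at chr13:43200504-43200533 on the minus strand. The GGAC of Snx33, Nsd1 and Gfod1 lay 141, 1494 and 1939 bp from the centre of its region, outside the central 200 bp. A printed window therefore does not mark where in a region the enrichment lies. GGAC was sought on the transcribed strand in the central 200 bp of regions called in all 4 lists that overlapped an exon of any gene. It was present in 39 of 58 such member regions (67.2%), beside 3983 of 6460 such regions in all (61.7%), at a mean GC content of 55.3% and 55.2%. In the 40 regions within an exon of the named gene, 29 (72.5%) held it, and no share was computed for all regions placed likewise.

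The lists of normal replicates 1 and 2 held 146 and 170 member peaks, and those of starved replicates 1 and 2 held 183 and 217. The member share of all kept peaks was between 0.775% and 0.879%, and the member share of IP reads was between 0.504% and 0.620%, with no separation of the conditions. Kept peaks numbered 17364, 21943, 23088 and 24701 in the same order, so both starved lists were longer than both normal lists for all peaks as well as for members. Reads in the lists cover called peaks alone and do not give the depth of a library. Of 12 fibroblast marker genes, 6 had a peak in an exon (among them Col1a2, Col3a1, Pdgfra and Pdgfrb), with 13614 to 36703 input reads in these peaks per list, and Col1a1, Fn1, S100a4, Thy1, Twist1 and Vim had none. Of 4 marker genes each, 0 epithelial, 1 leukocyte, 1 endothelial and 1 neural marker had one, on 184 to 389 input reads for the leukocyte gene and at most 5 and 74 for the endothelial and the neural gene. A gene without an enriched peak may still be expressed.

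The Tbc1d family had the most peaks, 268 over 20 gene names, followed by the Rab GTPases with 188 over 19 names. The Snx genes had 128 peaks over 13 names, the Dennd genes 87 over 11 and the Rab11fip genes 45 over 5. Starved replicate 2 had 91 Tbc1d peaks against 56 to 64 in the other lists, and normal replicate 1 had 13 Dennd peaks against 23 to 27. Rab GTPase peaks numbered 43, 46, 51 and 48, and here the lists differed little.

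**Figure D1:**
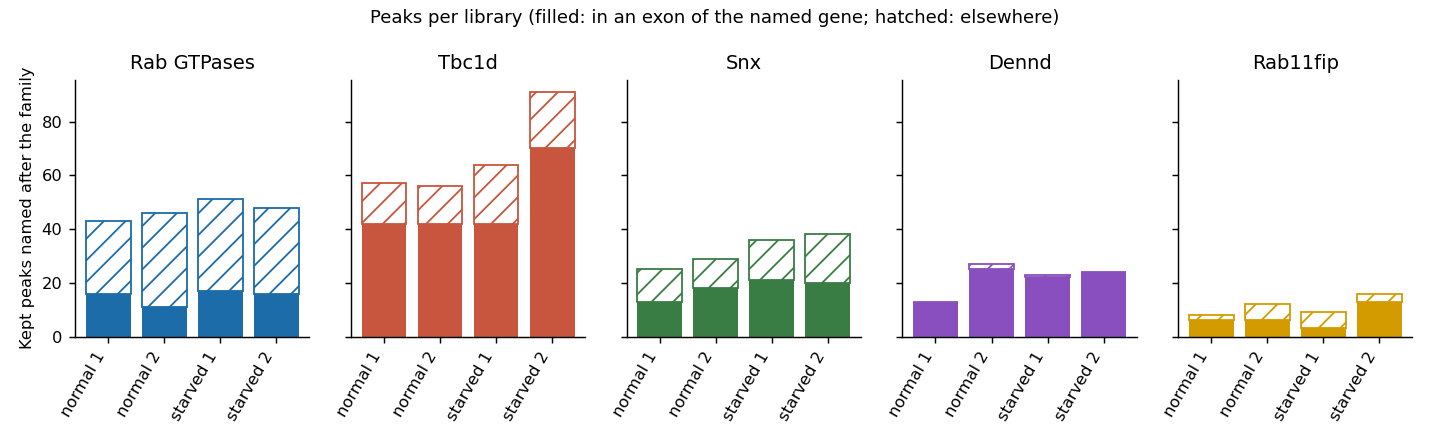
Number of kept peaks (y axis) deposited under each family's names in each of the 4 lists (x axis), 1 panel a family, with the filled part of a bar for peaks in an exon of the named gene and the hatched part for peaks elsewhere. Nearly all Dennd peaks are filled (84 of 87), whereas 60 of 188 Rab GTPase peaks are.

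The deposited name is that of the nearest transcription start, and the peaks were therefore placed on the exons of the mouse annotation. Of the 716 member peaks, 440 (61.5%) overlapped an exon of the gene they were named after. The families differed in this. The share was 96.6% for Dennd (84 of 87 peaks), 73.1% for Tbc1d (196 of 268), 62.2% for Rab11fip (28 of 45), 56.2% for Snx (72 of 128) and 31.9% for the Rab GTPases (60 of 188). Over regions, 211 of 319 member regions (66.1%) overlapped an exon of the named gene, beside 54.4% of all 39979 regions. Of the 211, 12 also overlapped an exon of another gene, among them 6 of the 29 of the Rab GTPases. A further 71 member regions lay in an exon of another gene, 21 in an intron of the named gene, 7 in an intron of another gene and 9 outside genes.

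Rab24, a Rab linked to autophagosome clearance, had the most peaks of any Rab name, 56 over the 4 lists. Of these, 2 overlapped a Rab24 exon, and both lay in exons of Prelid1 as well. The other exonic peaks of the Rab24 name lay in Nsd1, the neighbouring gene for a histone methyltransferase. Nsd1 held 15 of the 71 member regions in exons of another gene. Peaks deposited as Rab6b (27, of which 1 in a Rab6b exon) lay mainly in Slco2a1, a prostaglandin transporter gene, with 11 regions there. Those deposited as Snx4 (17, of which 1 in an Snx4 exon) lay in Osbpl11, which encodes a lipid transfer protein. Peaks of the Tbc1d9 name (34, of which 8 in its exons) lay in Rnf150 with 9 regions. All 10 peaks deposited as Tbc1d7, a subunit of the TSC complex that restrains mTORC1, lay in Gfod1, and the 11 peaks of Rab11fip4 held no Rab11fip4 exon, with 4 regions in Nf1. The names Rab1b, Rab19 and Rab29 likewise had no peak in an exon of their gene, and exonic peaks under them lay in Klc2, Mkrn1 and Slc41a1.

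Peaks within exons of these families under any deposited name gave the complementary count, an alternative chosen after seeing the data. Of the 138 protein-coding genes of the families in the annotation, 72 (52.2%) had a peak in an exon in at least 1 list and 33 (23.9%) in all 4 lists, beside 31.0% and 14.1% of 21951 coding genes. By family the share with an exonic peak was 11 of 14 Dennd genes (78.6%), 4 of 5 Rab11fip genes (80.0%), 20 of 30 Tbc1d genes (66.7%), 15 of 30 Snx genes (50.0%) and 22 of 59 Rab GTPase genes (37.3%). The median mature transcript length was greatest in the families with the highest shares, with 5151.5 bp for Dennd, 6119 bp for Rab11fip, 4262 bp for Tbc1d, 2547 bp for Snx and 2827 bp for the Rab GTPases, against 2679 bp for all coding genes, and its part in the shares was not tested. Coding genes of the families with an exonic peak had a median length of 4457.5 bp and those without had 2423 bp. Over all coding genes the medians were likewise 4162.5 bp with and 2111 bp without. Rab11fip genes went the other way, with 5751 bp with and 7156 bp without.

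These exons held 874 peaks, and 433 of them carried a name outside the 5 families. For Tbc1d16, a GAP that acts on recycling endosomes, 39 of 51 exonic peaks were deposited under the microRNA gene Mir6934. For Tbc1d9, 33 of 41 exonic peaks carried the name Ucp1. Snx30 had 29 of 37 exonic peaks under Slc46a2, Dennd1b, a GEF for Rab35, had all 33 under 4930596I21Rik, and Rab11fip1 had 22 of 25 under 4933416M07Rik. Tbc1d17, a GAP studied in autophagy and receptor recycling, and Tbc1d5, which acts with the retromer, had 7 and 3 exonic peaks and no peak of their own name, and 10 genes were in that position in all.

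Regions called in all 4 lists are the ones that can be compared between conditions, and 59 of 319 member regions (18.5%) were among them, beside 16.3% of all regions. They comprised 24 Tbc1d, 14 Rab GTPase, 11 Snx, 8 Dennd and 2 Rab11fip regions, and 40 of the 59 overlapped an exon of the named gene. Within a condition, normal replicates shared 78 member regions, which were 60.5% and 48.8% of the regions of replicates 1 and 2, and starved replicates shared 109, which were 66.9% and 53.2%. Another 146 member regions (45.8%, beside 49% of all regions) were called in 1 list alone.

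Among the 40 regions in exons of the named gene, coding sequence made up most of the exonic bases in 30, the 5′ UTR in 8 and the 3′ UTR in 2. In the 18 member regions in exons of another coding gene the 3′ UTR led in 9 and the 5′ UTR in none. Regions in exons of the families deposited under another name numbered 35 with a coding host, of which 12 were mostly 3′ UTR and none mostly 5′ UTR. Under any name, the regions in exons of these families were 10.7% mostly 5′ UTR, 70.7% mostly coding and 18.7% mostly 3′ UTR (n = 75), beside 10.4%, 71.4% and 18.2% of 6121 regions in all.

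Enrichment over the input was modest for most members. The median IP/input fold of the 59 regions over the 4 lists was 2.93, beside 2.98 for all 6531 regions called in all 4 lists, and peaks entered only at a fold of at least 2. The fold is the ratio of the authors' scaled values, so the ratio of IP to input reads is multiplied by 0.806, 1, 0.429 and 0.667 in normal replicates 1 and 2 and starved replicates 1 and 2. The median fold over all kept peaks of a family was 2.57 to 2.75 for the Rab GTPases and 3.20 to 4.03 for Snx in the 4 lists, and 2.97 to 3.11 for all peaks. Where the input had 3 reads or fewer, 3 were used in the ratio and the fold is a minimum, which applied to at least 1 list in 2 of the 59 regions.

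**Figure D2:**
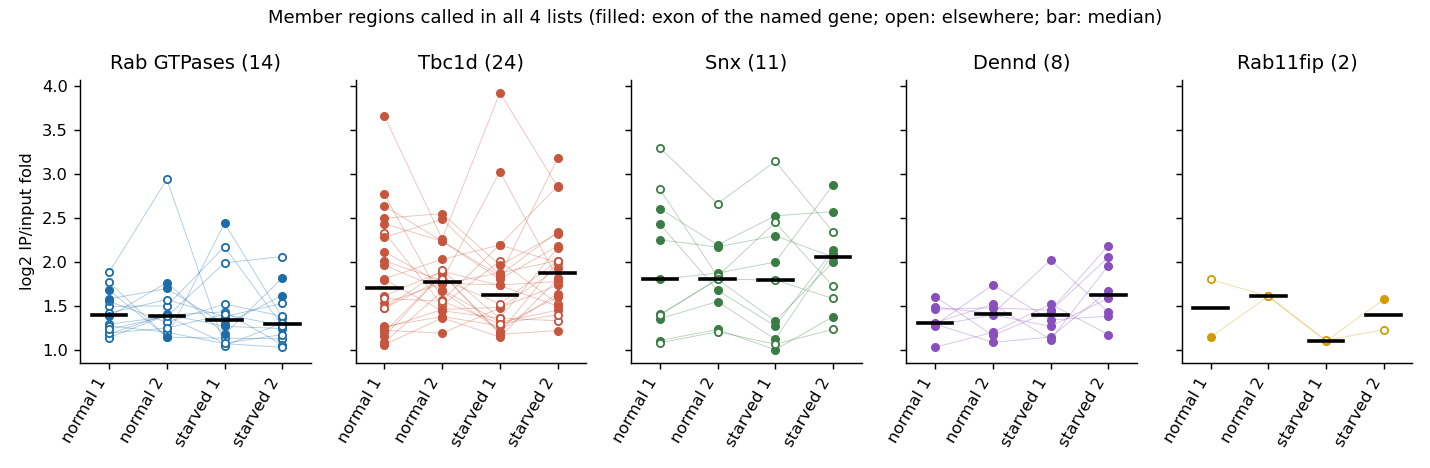
log2 IP/input fold (y axis) of the 59 member regions called in all 4 lists, in each list (x axis) and family, with filled points for regions in an exon of the named gene, open points for regions elsewhere, lines joining the values of 1 region and black bars at medians. Most points lie between the threshold of 1 and 2.5, and the highest are exon 1 of Tbc1d24 and a region beside Snx33.

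Snx33, a sorting nexin with an SH3 domain that acts in endocytosis, had folds above 4 in every list over both of its exons. Its first exon, with the start of the coding sequence (chr9:56925091-56928620), held 5708, 4775, 10930 and 7898 IP reads in normal replicates 1 and 2 and starved replicates 1 and 2, against 756, 1043, 814 and 886 input reads. The folds were 6.09 and 4.58 under normal conditions and 5.75 and 5.94 after starvation, and the conditions overlapped. The last exon (chr9:56913611-56918950) had folds of 4.76, 4.50, 4.92 and 4.17. The highest lowest-of-4 fold in the family, 5.07, was in the adjoining region chr9:56911821-56913590, which lies outside annotated genes and held 57 to 274 IP reads. A further region deposited as Snx33 (chr9:56896351-56899830) lay in exons of Cspg4 and had folds of 2.10 to 2.35.

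Snx18, which remodels endosomal membrane that feeds autophagosomes, had 1 region over its first exon of 2 (chr13:113616561-113618720), with 169 bp of 5′ UTR and 1594 bp of coding sequence. It held 4649 and 5686 IP reads under normal conditions and 5892 and 6974 after starvation, with folds of 2.65 and 3.49 against 2.52 and 3.99. Replicates of the same condition differed more than the conditions did. Snx19 had folds of 2.01 to 2.60 over its first exon, and the 2 regions of Snx30 had folds of 2.18 to 5.39. The Snx29 region of exon 8 held 13, 11, 28 and 33 IP reads and at most 1 input read, so its folds are lower bounds. For Snx27, a retromer cargo adaptor with 3 lists under its own name, exonic peaks were present in all 4 lists with folds of 2.28 to 2.88.

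Tbc1d2b, a GAP of the endosomal pathway, had 35 peaks under its own name, all in its exons. Its regions called in all 4 lists numbered 12, of which 8 carried its name and 4 the name Adamts7, and they ran from the first exon to the last. The folds over these 12 regions and the 4 lists lay between 2.23 and 6.21. Summed over exonic peaks, IP reads were 4009 and 5765 under normal conditions and 8000 and 7382 after starvation, and folds were 2.85, 3.54, 3.13 and 3.29. Tbc1d16 likewise had 12 regions, 3 under its own name and 9 under Mir6934, with folds of 2.38 to 9.60.

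Tbc1d1, a GAP known from insulin-regulated vesicle traffic, had the most peaks of any Tbc1d name, 49, all in its exons. Over its exonic peaks, which include 4 of another name, IP reads were 1352, 4268, 3801 and 7623 and folds 2.22, 2.52, 2.42 and 2.58. Tbc1d14, a regulator of starvation-induced autophagy through Rab11 membranes, had 34 peaks, of which 18 were in its exons, and exonic folds of 2.48 to 2.61 in all lists. Tbc1d25, a GAP for Rab33b in autophagosome maturation, had exonic folds of 3.70, 3.47, 3.24 and 2.96 on 582, 229, 848 and 639 IP reads. Tbc1d24, mutated in inherited epilepsies, had the highest lowest-of-4 fold of the family, 4.80, in its first exon (chr17:24205241-24206300), where 5 to 10 input reads stood against 48 to 177 IP reads. Tbc1d10b had folds of 2.41 to 3.04 over its first exon on 1438 to 3449 IP reads.

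**Figure D3:**
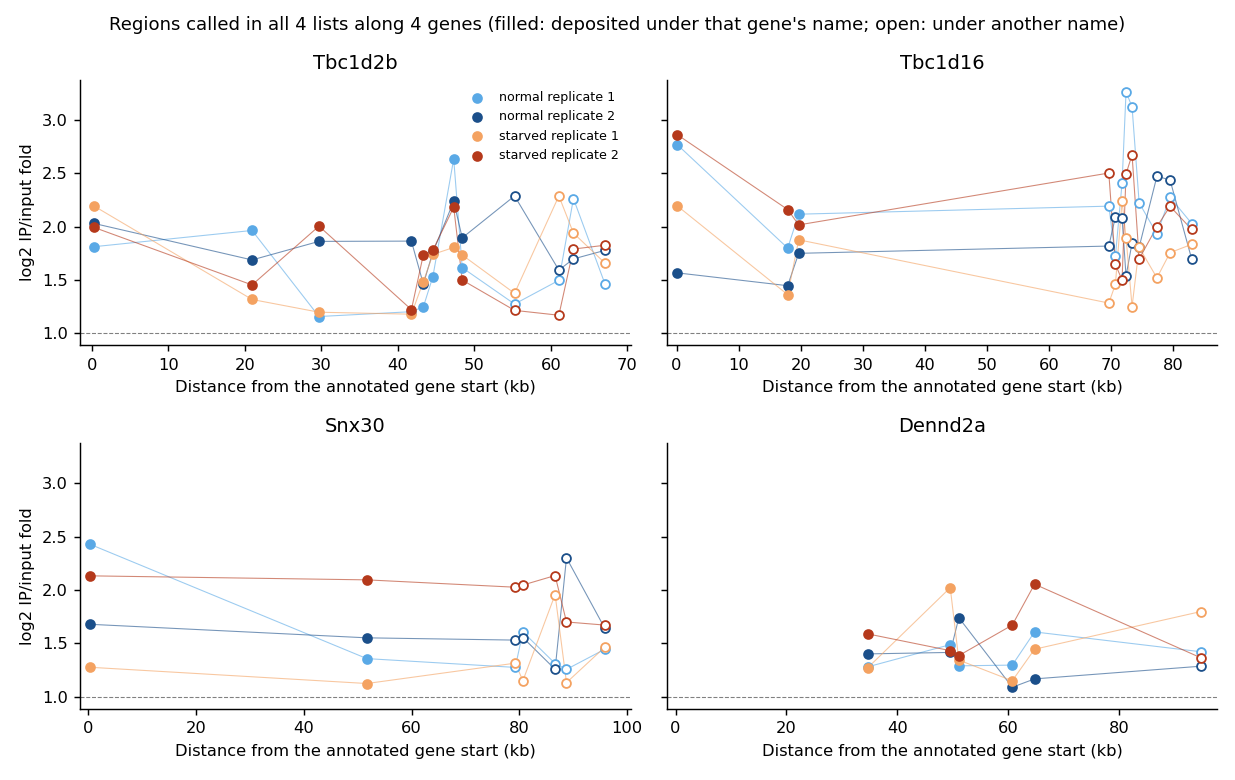
log2 IP/input fold (y axis) of regions called in all 4 lists along Tbc1d2b, Tbc1d16, Snx30 and Dennd2a, by distance of the region's middle from the annotated gene start in kb (x axis), with 1 colour a list, filled points for regions under the gene's own name, open points for regions under another name and a dashed line at the threshold of 1. In each gene the regions toward the far end carry another gene's name (4, 9, 5 and 1 regions), and the folds lie between 2.12 and 9.60.

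Dennd2a, a GEF of the Rab9 group, had the most Dennd peaks, 28, all in its exons. Its second exon (chr6:39522471-39523960), with 130 bp of 5′ UTR and 974 bp of coding sequence, held 864 and 1001 IP reads under normal conditions and 2042 and 1593 after starvation, with folds of 2.43 and 2.64 against 2.41 and 3.01. Dennd5a, a Rab39 and Rab6 partner, had its highest fold in exon 1 (chr7:109959841-109960590), with 2.76 and 2.79 in normal and 2.74 and 4.55 in starved MEFs. Exonic peaks in all 4 lists were also found for Dennd4a, with folds of 3.41 to 5.25, and for Dennd4c, with folds of 2.46 to 5.27. Dennd3, which is activated by the autophagy kinase ULK1 and acts on Rab12, had peaks in 3 lists and Dennd6a in 3, and Dennd1a had them in 1.

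Rab11fip3, an effector of Rab11 in recycling and cytokinesis, had 23 peaks under its name, and its first exon (chr17:26067441-26069630) had folds of 2.22 and 3.05 in normal and 2.15 and 2.98 in starved MEFs. Replicate 2 exceeded replicate 1 in both conditions. Rab11fip5 had the most exonic IP reads of the family in 3 of the 4 lists, 5898 and 4259 in normal and 2401 and 6030 in starved MEFs, at folds of 2.14 to 2.75. Rab11fip1 had exonic peaks in all 4 lists with folds of 3.17 to 6.88, and Rab11fip2 in 2 lists.

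Among the Rab GTPases, 4 regions called in all 4 lists lay in exons of the named gene. Rab43, which acts in retrograde transport and Golgi organisation, had 2 of them. Its exon 1 (chr6:87811211-87811950) held 453, 429, 829 and 728 IP reads, with folds of 2.99 and 3.25 in normal and 2.45 and 3.07 in starved MEFs. More IP reads lay in a region over its last exon, mostly 3′ UTR, that was deposited as Gp9 and called in all 4 lists. They numbered 2217 and 2876 in normal and 7315 and 5123 in starved MEFs, at folds of 2.38 to 2.74. Rab22a, an early endosomal Rab, had folds of 2.27 to 2.65 over exon 2 on 53 to 242 IP reads. A region overlapping its exons and deposited as Mir6340 (chr2:173700791-173704580) was also called in all 4 lists. It held 293 and 1807 IP reads in normal and 2881 and 3048 in starved MEFs, at folds of 2.17 to 3.38. Rab33b, which binds ATG16L1 at the forming autophagosome, had a region over its second exon (chr3:51493231-51494450) with 127 and 322 IP reads and folds of 3.20 and 2.22 in normal MEFs, and 76 and 457 IP reads and folds of 5.43 and 2.58 in starved MEFs. Rab11b, the recycling endosome Rab, had exonic peaks in all 4 lists on 69 to 200 IP reads, but no single region was called in all 4. By the lowest of the 4 folds, 2.61, the leading region deposited under a Rab name was that of Rab24 over the last exon of Nsd1 (chr13:55311891-55318230).

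From 42 genes listed as core members by their textbook role, 26 had an exonic peak in at least 1 list, 14 in all 4 lists and 16 in none. Of all coding genes, 31.0% had an exonic peak in at least 1 list and 14.1% in all 4 lists. For all coding genes of these families the shares were 52.2% and 23.9%. The 16 core genes without an exonic peak were Rab1a, Rab1b, Rab5a, Rab5c, Rab7, Rab8a, Rab8b, Rab11a, Rab14, Snx1, Snx2, Snx3, Snx5, Snx6, Tbc1d7 and Tbc1d15. They include Rab5a and Rab5c of early endosomes, Rab7 of late endosomes and Snx1, Snx2, Snx5 and Snx6, the SNX-BAR proteins that work with the retromer. Other endosomal Rabs had exonic peaks, with Rab22a and Rab21 in 4 lists and Rab5b in 3. Among the rest of the core genes, Rab35, Rab24 and Tbc1d4 had them in 2 lists and Rab10, Snx4 and Snx9 in 1. At this depth a missing peak says that the RNA did not pass the thresholds of enrichment, not that it was unbound or absent.

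The question for starvation was whether the IP/input fold of these RNAs moved when nutrients were withdrawn. At the study's cutoff, a 1.8-fold change in the same direction in both replicates, 0 of 59 member regions were higher and 0 lower in starved MEFs, and this is a count without a test. Over all 6531 regions 0.23% were higher and 0.322% lower. All of these regions, members included, had passed a fold of at least 2 in every list, and the median fold of the members was 2.93. To reach the cutoff, both folds of the higher condition had to be at least 1.8 times that minimum. Regions that lost or gained their call were left out. The low counts at this cutoff are therefore in part set by the filter. With no size required, 14 member regions were higher and 17 lower in both replicates (23.7% and 28.8%), beside 28% and 25.4% of all regions. The median change of the members in log2 fold was -0.040 in replicate 1 and 0.019 in replicate 2, and for all regions it was -0.050 and 0.073. Replicates of the normal condition differed by a median of 0.23 in log2 fold and those of the starved condition by 0.37, against median absolute changes of 0.21 and 0.22 between conditions.

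**Figure D4:**
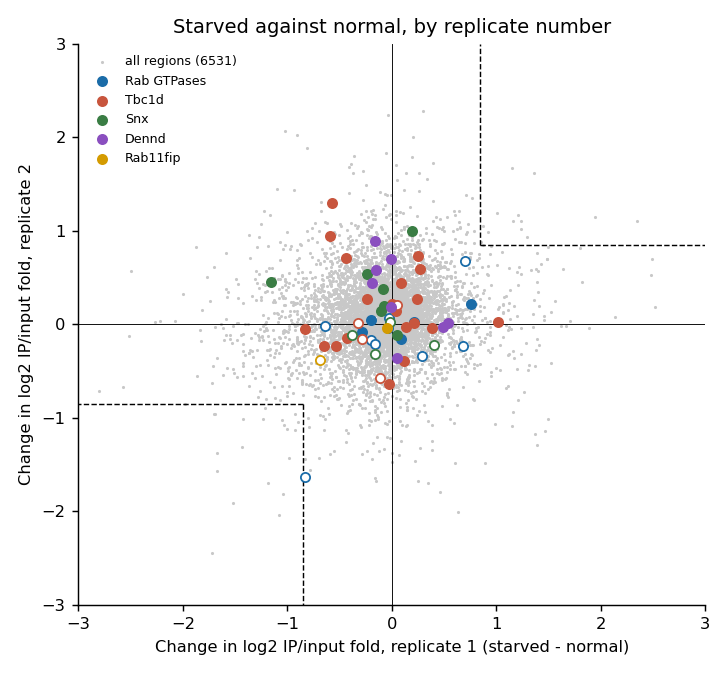
Change in log2 IP/input fold from normal to starved MEFs in replicate 1 (x axis) and replicate 2 (y axis), with grey dots for all 6531 regions called in all 4 lists, coloured points for the 59 member regions (filled in an exon of the named gene, open elsewhere) and dashed corners at a 1.8-fold change in both replicates. No member point lies within a corner, and 1 region that is no member lies outside the axes.

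The largest change in the same direction was that of the region deposited as Rab40c, a substrate receptor of a ubiquitin ligase, which lies over the last exon of Pigq, a gene of GPI anchor synthesis (chr17:25925711-25927840). It held 87 and 23 IP reads under normal conditions and 1373 and 449 after starvation, with 19 and 1 input reads against 284 and 121. Both IP and input reads were higher in the starved lists, without overlap. The fold was 3.69 and at least 7.67 in normal and 2.07 and 2.47 in starved MEFs, a log2 change in fold of -0.83 in replicate 1, just short of the cutoff, and of -1.63 or further below 0 in replicate 2, where the normal fold is a minimum. The edgeR estimate for the IP/input ratio was -1.13 ± 0.42 (log2, SE, adjusted p = 0.999).

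In the other direction, the region deposited as Rab24 over exon 22 of Nsd1 (chr13:55310151-55310740) had folds of 2.45 and 2.61 in normal and 3.97 and 4.18 in starved MEFs. The 2 conditions did not overlap there, but the ratio estimate of 0.64 ± 0.31 (log2, SE) had an edgeR adjusted p of 0.999. Next were exon 1 of Tbc1d24, exon 1 of Tbc1d1, exon 5 of Tbc1d2b and the Rab33b exon, whose smaller change of the 2 replicates was 0.27, 0.25, 0.24 and 0.22 on the log2 scale. On the lower side, the region deposited as Rab11fip4 over the last exon of Nf1 (chr11:79578071-79579050) had folds of 3.49 and 3.06 in normal and 2.16 and 2.35 in starved MEFs (smaller change -0.38). It was followed by exon 2 of Tbc1d2b (-0.23), exon 2 of Tbc1d24 (-0.23) and the region deposited as Rab29 in Slc41a1 (-0.17). Regions of the same gene thus stood on both sides for Tbc1d2b and Tbc1d24.

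By edgeR's quasi-likelihood test of the IP/input ratio, 0 of 59 member regions passed an adjusted p of 0.05 in either direction, beside 1 higher region (0.0153%) and 0 lower among 6531. At an unadjusted p under 0.05, 0 member regions were higher and 2 lower, beside 1.26% and 1.55% of all regions. DESeq2 also called 0 members. The smallest adjusted p of a member was 0.999, with a median standard error of 0.29 on the log2 scale, so the changes seen here in single regions could not be told from none. Family medians of the ratio change were -0.095 for the Rab GTPases, 0.028 for Tbc1d, -0.067 for Snx, 0.16 for Dennd and -0.31 for Rab11fip, the last over 2 regions, and -0.015 over all regions. Among the 78 regions in exons of these genes under any name the count was also 0 in each direction.

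IP reads per base of called length gave 0 member regions higher and 0 lower at an edgeR adjusted p of 0.05, beside 0.184% and 0.934% of all regions. At an unadjusted p under 0.05, 2 members were higher and 3 lower (5.01% and 5.37% of all regions). DESeq2 called 0 higher and 1 lower, beside 1.05% and 1.76% of the 6404 regions to which it gave an adjusted p, so the member share was near that of all regions. Member estimates ranged from -1.12 to 1.12 on the log2 scale, with 29 above and 30 below 0 and a median of -0.0062, beside 0.0089 for all regions. For Tbc1d1 exon 1 (chr5:64159561-64160690) the estimate was -0.63 ± 0.21 (SE, adjusted p = 0.308), and for Dennd5a exon 1 it was 0.57 ± 0.23 (SE, adjusted p = 0.437).

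Input reads per base, which reflect RNA abundance in the same regions, gave 0 member regions higher and 1 lower, beside 0.214% and 0.766% of all regions. At an unadjusted p under 0.05, 1 member was higher and 2 lower (4.01% and 4.23% of all regions). The region past the adjusted threshold was the one deposited as Tbc1d7 over the last exon of Gfod1 (chr13:43195691-43201470, minus strand, 920 bp of coding sequence and 4634 bp of 3′ UTR). Its input reads were 1025 and 1831 under normal conditions and 345 and 621 after starvation, or 198 and 317 against 81.2 and 112 per kb. Its IP reads were 3537 and 6400 in normal and 2317 and 3761 in starved MEFs. Both starved values lay below both normal values in the input and in the IP.

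The input fell by 1.23 on the log2 scale (SE 0.23, edgeR adjusted p = 0.0427), and the adjusted p was 0.000188 to 0.225 over 9 alternatives. Without starved replicate 1 it was 0.0590, and with no length offset 0.225. The IP estimate was -1.12 ± 0.25 (SE, adjusted p = 0.114), and it passed in 3 of 9 alternatives, by DESeq2 (adjusted p = 0.00186), with the replicate block (edgeR adjusted p = 0.00027) and without normal replicate 1 (edgeR adjusted p = 0.00251). The ratio was 0.10 ± 0.19 (SE), with folds of 2.78 and 3.50 in normal and 2.88 and 4.04 in starved MEFs. In bulk samples, fewer cells that express a gene and less RNA per cell cannot be told apart. Since no peak overlapped an exon of Tbc1d7 itself, the call describes Gfod1 RNA and gives no value for Tbc1d7.

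**Figure D5:**
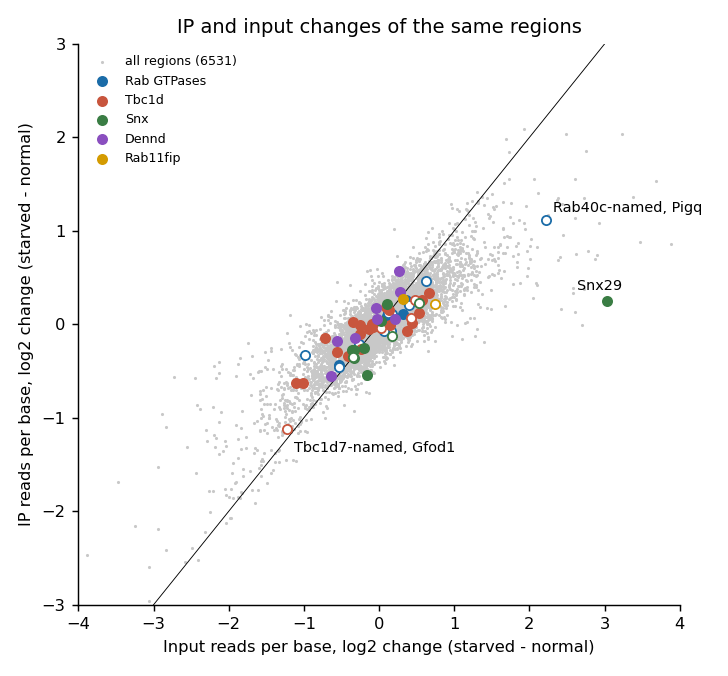
edgeR log2 change of IP reads per base (y axis) against that of input reads per base (x axis), starved minus normal, for all 6531 regions called in all 4 lists (grey) and the 59 member regions (coloured by family, filled in an exon of the named gene and open elsewhere), with the line of equal change. The Gfod1 region lies near the line at -1.23 and -1.12, the Snx29 region rests on at most 1 input read, and 19 of the grey regions lie outside the axes.

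Leaving out libraries moved other member calls. Without normal replicate 1, the region over Pigq was called higher in IP reads (1.96 ± 0.46, SE, edgeR adjusted p = 0.00433), beside 1.16% of all regions called higher, and its higher input call in that fit rests on 1 read in the normal library left, so no size is given. Without starved replicate 2 it was called higher in IP reads (edgeR adjusted p = 0.0424) and in input reads (adjusted p = 6.28e-06), beside 0.812% and 1.12% of all regions called higher. Without starved replicate 2, the input estimate was -2.76 ± 0.78 (SE) for the Rab33b exon and -1.73 ± 0.42 (SE) for Dennd5a exons 3 and 4. Input reads of Rab33b were 32 and 145 in normal and 6 and 118 in starved MEFs, over 470, 580, 360 and 690 bp. Those of Dennd5a were 443 and 798 in normal and 67 and 801 in starved MEFs. Both estimates thus rest on the low reads of starved replicate 1. In fits without a library the single remaining library of a condition is assumed to vary like the other condition. Called lengths of the Dennd5a region were 880, 1560, 560 and 1610 bp in the 4 lists, and of the region over Pigq 400, 230, 1750 and 1360 bp.

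A total of 15 member regions were called in both starved lists and neither normal list (4.70%, beside 4.7% of all regions), and 7 in both normal lists and neither starved list (2.19%, beside 1.3%). A region missing from a list has no reads in it, so these cannot be tested. The starved set with the most IP reads comprised exon 8 of Tbc1d1 (chr5:64275221-64275660), with 173 and 194 IP reads and folds of 2.75 and 2.31, and exon 8 of Tbc1d14 (chr5:36519051-36519510), with 78 and 95 IP reads and folds of 2.79 and 3.96. Exon 3 of Tbc1d9 (chr8:83221291-83221670) had 65 and 91 IP reads and folds of 3.10 and 2.53. The regions deposited as Rab1b in Klc2 (237 and 78 IP reads) and as Rab19 in Mkrn1 (77 and 84 IP reads) completed the leading 5. Tbc1d14 had a further region of this kind over exon 6, and 9 of the 15 regions lay in exons of the named gene.

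In the normal set, 3 of the 7 regions were deposited as Rab6b and lay in exons 6, 8 and 11 of Slco2a1, with 125 to 134 IP reads in replicate 1 and 135 to 162 in replicate 2. The others with the most reads were the last exons of Rab11b (chr17:33746051-33746630, 70 and 105 IP reads, folds of 4.70 and 2.92) and Rab21 (chr10:115287331-115287630, 29 and 42 IP reads), an endosomal Rab. The Slco2a1 exon 14 region, also deposited as Rab6b and called in all 4 lists, held 944 and 222 IP reads in normal and 1864 and 1780 in starved MEFs, with an IP estimate of 0.46 ± 0.34 (log2, SE, edgeR adjusted p = 0.762). Exon 7 of Slco2a1 was called in the starved lists alone.

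Of 54 other genes of the Rab cycle and its partners, such as the Rab3 GAP, RabGEF, GDI and retromer genes, 31 had a peak in an exon. The share over all coding genes was 31.0%. By name, 7 had a region called in all 4 lists. These 17 regions gave 0 calls in each direction by edgeR for the ratio, for IP reads and for input reads, and 0 changed 1.8-fold in both replicates. Over all 6531 regions the higher and lower shares were 0.0153% and 0% for the ratio and 0.184% and 0.934% for IP reads. They were 0.214% and 0.766% for input reads, and 0.23% and 0.322% at 1.8-fold. At such shares a count of 0 in 17 regions says little about these genes. Their median change in log2 fold was -0.15 in replicate 1 and 0.17 in replicate 2. The 3 regions of Mon1b, a subunit of the Rab7 GEF, had changes of -0.44, -0.19 and -0.49 in replicate 1 and of 0.63, 1.06 and 1.07 in replicate 2, so the replicates stood on opposite sides of 0. The regions deposited as Sgsm3, a Rab GAP, lay in Sgsm3 and in its neighbour Mrtfa.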

How the data were processed

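The 4 YTHDF3 IP libraries of MEFs and their inputs were used. Per the labels and the study's methods, reads were aligned to mm10 with TopHat2 2.0.13, peaks were called with diffReps and named by HOMER. How reads on either strand were counted is not given in the sources used here. For 3 libraries the authors deposited a signal, reads per peak times 1 factor per library, and for normal replicate 2 they deposited counts. The lists also hold deposited p-values, which were used as a filter, and log2 fold changes, which were not used. Dividing by the factor, read from the spacing of the values, gave whole reads for 100% of values. The lists do not name their input, and that of the same replicate number is assumed.

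Kept peaks had at least 2-fold IP over input and p below 0.0001. The edgeR 4.0.16 fits used regions present in each of the 4 lists (quasi-likelihood, TMM, Benjamini-Hochberg over 6531 regions, an offset for called length in the fits of IP and input reads, a term for each pair of an IP and its assumed input in the ratio fit), with DESeq2 1.42.0 as an alternative. Exons came from the GENCODE annotation of mm10. Merging and tests were tested on simulated data. Precision is limited by reads per region, and intervals for a peak would cover counting error only. With 2 replicates no permutation test can pass 0.05.

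Named regions are the core members, those past an adjusted p of 0.05, per family the one with the highest lowest-of-4 fold and the gene with most peaks, the 5 with the largest smaller change in each direction, and up to 5 called in 1 condition alone. Genes named for a deposited name that differs from the host gene, and Snx19, Snx30, Snx29, Tbc1d10b, Tbc1d16, Tbc1d5, Rab22a, Rab43 and Mon1b, were chosen after their values were seen. Members and lists were chosen with earlier results of these data known. Alternatives covered thresholds, overlap, exon placement, normalization, read filters, length offset, a replicate block and leaving out libraries.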

Additional observations from a re-analysis of the deposited data

How the results depend on the processing

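The 716 member peaks became 243 at a fold of at least 4, 374 at a p under 1e-08 and 440 when a peak had to overlap an exon of the named gene, while peaks in exons of the genes under any name numbered 874. The 1.8-fold counts of 0 higher and 0 lower became 1 and 1 at a cutoff of 1.5 (beside 1.03% and 1.18% of all regions) and stayed 0 at the other settings. The ratio test called 0 members at every setting run. IP calls of members were 0 higher and 0 lower as reported, 0 higher and 1 lower by DESeq2 (beside 1.05% and 1.76%), and over the fits without 1 library the higher calls ranged from 0 to 1 (0.107% to 1.27% of all regions) and the lower from 0 to 1 (0.49% to 1.81%). Input calls were 0 higher and 1 lower as reported, and over the fits without 1 library the higher calls ranged from 0 to 1 (0.383% to 1.36% of all regions) and the lower from 0 to 3 (0.919% to 1.96%). The higher input call without normal replicate 1 rests on 1 read in the normal library left. The lower input call was 0 at a fold of at least 4, with 50% reciprocal overlap, with no length offset and with either exon placement, since the Gfod1 region is in no exon of these families. Of those, the cause of the loss with 50% overlap was not tested. With no length offset, 0% of all 6531 regions were called in input reads in either direction. That loss was thus not particular to the Gfod1 region, and its cause was not tested. The ratio change of the Gfod1 region ranged from -0.044 (without starved replicate 2) to 0.25 over the fits without 1 library, and was -0.016 without normal replicate 1. GGAC was held by 50.0% of member regions in 100 bp (39.969% of all regions), and GGACT in 200 bp by 25.9% (21.8%). Over whole regions GGAC was held by 89.7% of member regions, below the 93.8% of all regions. The higher member share in the central 200 bp was therefore not kept over whole regions, and the difference was not tested.

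Replicate numbers are shared by label only. Differences between the replicates of each condition correlated across regions (r = 0.28 for folds and 0.45 for IP reads, over 6531 regions that share libraries), and with 2 pairs the numbers were not taken to pair the samples. With the replicate block, IP reads gave 1 higher member call (Pigq) and 3 lower (Gfod1, Snx30 exon 1 and Tbc1d1 exon 1), beside 4.92% and 5.04% of all regions, so the lower share was near that of all regions. Input reads gave 1 higher and 2 lower (beside 1.65% and 2.3%), and the ratio 0. Few reads limit regions such as that of Snx29, where counts of 0 or 1 input reads allow no fold.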
